A study of Mus musculus with 18 samples.

Results

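Aminoacyl-tRNA synthetases join each amino acid to its tRNA. In this liver RNA-Seq table they were represented by 39 genes, matched by gene symbol among 37303 genes: 20 cytosolic enzymes, 16 mitochondrial enzymes whose symbols end in 2, and the scaffold proteins Aimp1, Aimp2 and Eef1e1. All 39 symbols were matched, each in 1 row, and all had an accepted estimate in all 6 groups. Gars and Kars were counted as cytosolic, although these genes also make the mitochondrial enzymes for glycine and lysine. The table gives expression as FPKM, which counts sequenced fragments relative to transcript length and to the size of the library and so allows levels to be compared between genes of different length.

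The mice were C57BL/6J. They were either wild type (WT) or carried a homozygous whole-body deletion of Gcn2 (Gcn2-/-) or of Atf4 (Atf4-/-). Each strain received 8 daily intraperitoneal injections of asparaginase (ASNase, 3 IU per gram body weight) or phosphate buffered saline (PBS), and liver was taken 7.5 h after the last one. There were 3 mice in each of the 6 groups, 18 in all. Their age is labelled 8 to 16 weeks in one place and 8 to 12 weeks in another, and the number of males was 1 of 3 in WT PBS and in both Gcn2-/- groups and 2 of 3 in the others. Because the deletions were in the whole body, the groups differ in every tissue and not in liver alone.

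Cells hold separate sets of synthetases for protein synthesis in the cytosol and in mitochondria, and the genes for both sets lie in the nucleus. When an amino acid is scarce, uncharged tRNA activates the kinase GCN2, which phosphorylates eIF2 and so favours translation of the transcription factor ATF4. Genes for several cytosolic synthetases, with those for amino acid synthesis and transport, are known targets of this pathway, and ASNase engages it by breaking down asparagine and, less strongly, glutamine.

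Each group has 1 pooled FPKM value with an interval from Cuffdiff, estimated by the authors from the 3 libraries together, so differences could not be checked against replicates and were given no p-value. FPKM values carry no counts, and the read depth behind a value is unknown from the table. Over genes with FPKM above 3, an interval reached to either side of its value by a median of 51.3% to 54.2% of that value, depending on the group. Of the knockout genes themselves, Atf4 was at 32.3 and 29.3 FPKM in the Atf4-/- groups against 50.4 to 68.1 in the others, whereas Eif2ak4, which encodes GCN2, lay between 2.19 and 3.14 in all groups, so this value does not check the Gcn2-/- label. The Atf4 transcript was lower but present in the Atf4-/- groups, and its value does not by itself show the labelled deletion. From plots of RNA read density, the authors reported a Gcn2 exon absent in Gcn2-/- mice and Atf4 absent in Atf4-/- mice. Hepatocyte markers were abundant in all groups, at a summed 7155 to 17815.5 FPKM over the 5 of 8 with an accepted estimate in every group. The albumin gene had no accepted estimate in any group. Markers of other tissues were also present: 8 skeletal muscle genes summed to 707 and 1018 FPKM in the WT groups and to 5.79 to 115 in the knockout groups.

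Under PBS in WT liver the cytosolic enzymes were the more abundant set. Their FPKM ranged from 7.31 for Lars to 51.2 for Aars, with a median of 19.7. The mitochondrial enzymes other than Lars2 ranged from 0.936 for Mars2 to 14.9 for Iars2, with a median of 8.45. Lars2, at 697 FPKM, stood apart from every other member and is described on its own. Summed over the 20 genes, the cytosolic set was at 472 FPKM under PBS and 455 after ASNase in WT, at 443 and 582 in Gcn2-/- and at 357 and 667 in Atf4-/- liver. Values listed for all 6 groups keep this order of strains, each with PBS first. The lowest and the highest sum were thus both in Atf4-/- liver. The 15 mitochondrial enzymes without Lars2 summed to 127, 122, 128, 114, 121 and 113 FPKM in the same order, a far narrower range.

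Comparisons between groups were made on log2(FPKM + 0.1), where differences of weakly expressed genes come out too small. Genes were called in a comparison when the FPKM was above 1 in either group and FPKM + 0.1 differed by more than 2-fold. That is a difference of more than 1 on the log2 scale. Fold differences are likewise those of FPKM + 0.1, so for weakly expressed genes they lie below the ratio of the printed FPKM values. For each comparison the percentage of all eligible genes called in the same direction is given as background.

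In WT liver none of the 39 members was called in either direction after ASNase, where 2.5% of all eligible genes were called higher and 1.15% lower. The median log2 response was 0.01 for the cytosolic enzymes (mean -0.05, range -0.51 to 0.25), -0.03 for the mitochondrial enzymes (range -0.45 to 0.88, highest for Lars2) and 0.00 for all eligible genes. Cars, the cysteine enzyme, was the lowest cytosolic enzyme at 20.4 FPKM under PBS and 14.3 after ASNase. By contrast, among 9 eligible reference genes of the amino acid response in the same livers the median log2 response was 1.15 and 5 were called higher, including Asns, the asparagine synthetase gene, at 2.50 and 8.13 FPKM.

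In Atf4-/- liver the cytosolic enzymes were broadly higher after ASNase. Of the 20, 9 were called higher, namely Vars, Nars, Sars, Iars, Wars, Gars, Eprs, Aars and Farsa, and none lower. Among all eligible genes 10.9% were called higher and 13.1% lower. The median log2 response of the set was 0.88 against 0.06 for all eligible genes, and 19 of 20 cytosolic enzymes lay above 0, where 53.1% of all eligible genes did. Dars, the aspartate enzyme, was the exception at -0.17. The mitochondrial enzymes had a median of 0.02, with 8 above and 8 below 0, and 2 of 16, Lars2 and Mars2, were called higher and none lower.

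**Figure D1:**
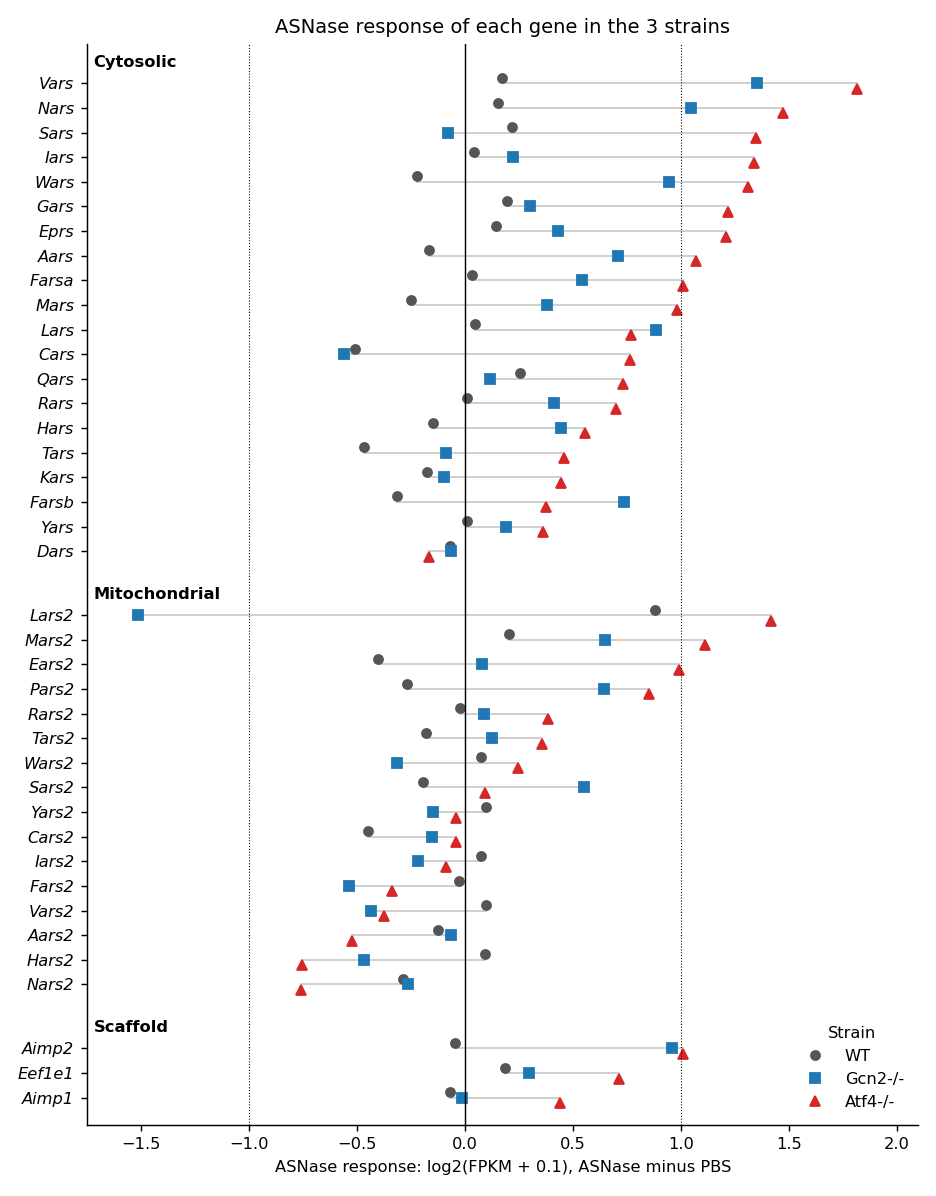
ASNase response of the 39 genes in the 3 strains, as the log2 difference between ASNase and PBS (horizontal axis) for each gene (rows, sorted within each class by the response in Atf4-/-), with dotted lines at a 2-fold difference. The Atf4-/- triangles of 9 cytosolic enzymes lie past the upper dotted line, the WT circles of all genes lie between the lines, and Lars2 spans from -1.51 in Gcn2-/- to 1.42 in Atf4-/-.

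Vars, which charges the valine tRNA, had the highest response of the family. It was at 12.8 and 14.4 FPKM in WT, 10.3 and 26.4 in Gcn2-/- and 9.24 and 32.8 in Atf4-/- liver, PBS first. It was thus 3.52-fold higher after ASNase in Atf4-/- liver and 2.55-fold higher in Gcn2-/- liver, and its intervals overlapped in both. Nars, the asparagine enzyme, was at 39.3, 43.7, 41.8, 86.6, 24.4 and 67.9 FPKM in the same order of groups. In Atf4-/- liver it was 2.77-fold higher and its intervals, 14.5 to 34.4 under PBS and 36.3 to 99.5 after ASNase, did not overlap. Nars was the only one of the 39 members called with separate intervals in any of the 8 comparisons, and 2.65% of all eligible genes were called higher with separate intervals in the Atf4-/- response.

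Wars, the tryptophan enzyme, was at 8.86 and 7.57 FPKM in WT, 7.17 and 13.9 in Gcn2-/- and 7.47 and 18.7 in Atf4-/- liver, PBS first. Its highest 2 values were those of the ASNase-treated knockout groups. Sars, the serine enzyme, behaved differently, at 26.9 and 31.2 in WT, 26.9 and 25.5 in Gcn2-/- and 20.9 and 53.3 in Atf4-/- liver. Only its Atf4-/- ASNase value stood away from the rest, 2.54-fold above Atf4-/- PBS. Gars, the glycine enzyme, was at 18.9 and 21.7, 17.3 and 21.3, and 13.5 and 31.5 FPKM, also highest in Atf4-/- ASNase.

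Eprs encodes a fused enzyme for glutamate and proline. It was at 25.05 and 27.7 FPKM in WT, 25.1 and 33.9 in Gcn2-/- and 24.3 and 56.2 in Atf4-/- liver, a 2.31-fold difference in the last strain. Farsa, the catalytic subunit of the phenylalanine enzyme, was at 10.2, 10.4, 10.1, 14.8, 9.61 and 19.4 FPKM in the 6 groups, whereas its partner subunit Farsb was called in no comparison and had a log2 response of 0.37 in Atf4-/- and 0.74 in Gcn2-/- liver. The called enzymes Aars and Iars had wide intervals. Aars, the alanine enzyme, was at 51.2, 45.6, 36.0, 59.0, 40.3 and 84.7 FPKM with lower bounds at 0 throughout, and Iars, the isoleucine enzyme, was at 15.6, 16.0, 10.5, 12.3, 8.92 and 22.7 FPKM. Their responses of 1.07 and 1.34 in Atf4-/- liver were smaller than the combined error of the 2 values, 1.55 and 1.48, taken as the root of the summed squared log2 distances from each value to its upper bound. The other 7 called cytosolic enzymes exceeded that error, beside 8.42% of all eligible genes that were called higher and exceeded it. Only upper bounds enter that error. On the log2 scale lower bounds lie further from the value, so the limit is lenient. For Vars the lower bound in Atf4-/- ASNase, 3.79, was below its Atf4-/- PBS value of 9.24.

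**Figure D2:**
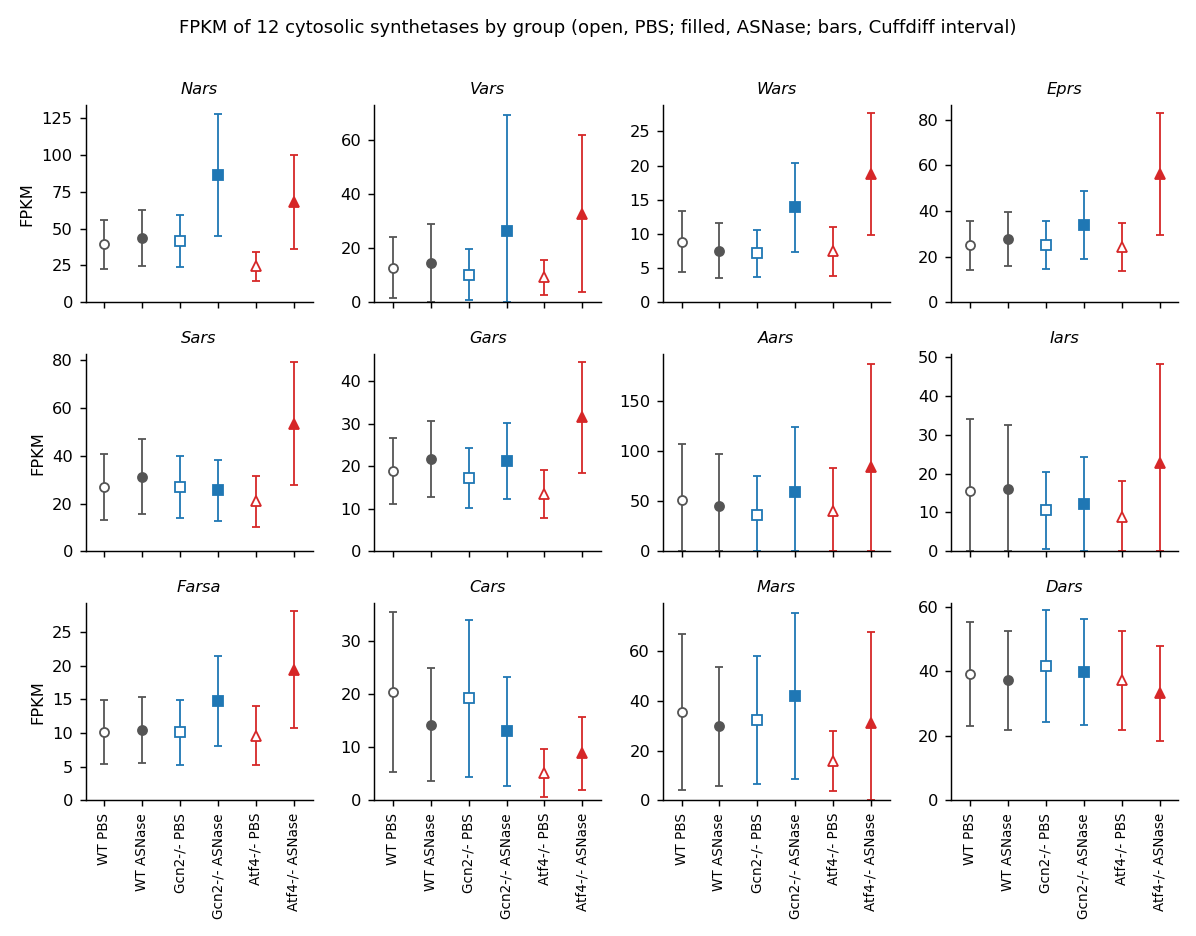
FPKM (vertical axes, starting at 0) of 12 cytosolic synthetases in the 6 groups (horizontal axes), 1 pooled value from 3 mice each, with open symbols for PBS, filled symbols for ASNase and bars for the Cuffdiff interval. The Atf4-/- ASNase value is the highest of the 6 for Vars, Wars, Eprs, Sars, Gars, Aars, Iars and Farsa, the Gcn2-/- ASNase value is the highest for Nars, and Cars and Mars are lowest in Atf4-/- PBS.

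Markers of pancreatic acinar cells were also higher in Atf4-/- liver after ASNase. Summed over 8 markers they were at 16.0 FPKM in Atf4-/- PBS and 329 in Atf4-/- ASNase, with 7 of 8 over 1 FPKM and Ctrb1 and Cpa1 at 176 and 16.2. In WT liver the sums were 13.2 and 62.9 FPKM, PBS first. In Gcn2-/- liver they were 10.6 and 5.47, and 5 of the 8 markers were listed at 0 in both groups. The 5 hepatocyte markers estimated in every group summed to 13950.5 FPKM under PBS and 7155 after ASNase in Atf4-/- liver. Ttr, Apoa1, Apoc3 and Cps1 were lower after ASNase there, whereas Tat went from 952 to 2013 FPKM. In bulk liver fewer cells of a type and less RNA per cell cannot be told apart. The part of either marker set in the synthetase values of Atf4-/- liver was not tested.

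In Gcn2-/- liver a smaller part of the cytosolic set lay above 0 after ASNase than in Atf4-/- liver. Vars and Nars were called higher, 2 of 20, beside 7.19% of all eligible genes, which is a share near the background. The median log2 response of the set was 0.40 against 0.05 for all eligible genes, and 15 of 20 cytosolic enzymes lay above 0, where 53.6% of all eligible genes did. Nars was 2.07-fold higher, more than its combined error of 0.76 on the log2 scale, and the intervals of 24.1 to 59.5 and 45.3 to 128 overlapped. Vars had a log2 response of 1.35 with a combined error of 1.67. Wars at 0.94, Lars at 0.88, Farsb at 0.74 and Aars at 0.71 followed below the limit, and Cars was lowest at -0.56. The mitochondrial enzymes had a median of -0.15, and 1 of 16, Lars2, was called lower, beside 7.62% of all eligible genes. The same 5 hepatocyte markers summed to 17815.5 FPKM under PBS and 10984 after ASNase in this strain. Ttr and Apoa1 were lower after ASNase, and Apoc3, Cps1 and Tat were not, with Tat at 613 and 1987 FPKM. Their part in these values was not tested.

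The responses of the strains were then set against each other by the difference of their log2 responses. Every such difference against WT uses the WT PBS and WT ASNase values, so the 2 sets of differences are not independent. The Atf4-/- response exceeded the WT response in 19 of 20 cytosolic enzymes, with a median difference of 1.0 and a range of -0.10 to 1.65. It exceeded the combined error of the 4 values for Wars (1.54), Nars (1.32), Eprs (1.06) and Gars (1.02). This error again counts upper bounds only, so exceeding it is a lenient limit here and in the other strain comparisons. The Gcn2-/- response exceeded the WT response in 17 of 20, with a median of 0.39, and passed the combined error for Wars (1.17) and Farsb (1.05). Between the knockout strains the Atf4-/- response was the larger in 17 of 20, by a median of 0.47, and only Sars, at 1.42, exceeded its combined error among the cytosolic enzymes. For the mitochondrial enzymes the median difference from WT was 0.23 in Atf4-/- and 0.04 in Gcn2-/- liver. None of these differences could be tested without values of the single libraries.

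ASNase depletes asparagine and glutamine, so the enzymes of these amino acids and of their products are given whatever their change. The asparagine enzymes of the 2 compartments went in different directions in Atf4-/- liver. Nars2, the mitochondrial one, was at 13.6, 11.1, 10.2, 8.49, 11.8 and 6.91 FPKM in the order of groups used above. Its log2 response in Atf4-/- liver was -0.76, the lowest of the 39 genes, beside 1.47 for Nars, and its intervals of 3.78 to 19.7 and 1.57 to 12.2 overlapped. Qars, the glutamine enzyme, was at 27.2, 32.5, 34.4, 37.2, 31.9 and 53.1 FPKM, highest in Atf4-/- ASNase but not called in any comparison. Dars stayed between 33.1 and 41.7 FPKM in all 6 groups. Ears2, the mitochondrial glutamate enzyme, was at 5.65, 4.25, 5.12, 5.41, 4.04 and 8.12 FPKM, with a log2 response of 0.99 in Atf4-/- liver just under the limit.

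Without ASNase, most cytosolic enzymes were at lower levels in Atf4-/- than in WT liver. Compared with WT PBS, 19 of 20 were below 0 in Atf4-/- PBS, where 47.8% of all eligible genes were, and the median log2 difference was -0.35 against 0.02 for all eligible genes. Qars was the exception at 0.23. Cars and Mars were called lower, 2 of 20, and none higher, beside 2.75% and 1.85% of all eligible genes. Cars, on chromosome 7 (mm10, 143557230 to 143600090, minus strand), was at 20.4 and 14.3 FPKM in WT, 19.2 and 13.0 in Gcn2-/- and 5.16 and 8.86 in Atf4-/- liver, PBS first. Both Atf4-/- values lay below the other 4. The log2 difference under PBS was -1.96, with a combined error of 1.19 that counts upper bounds only. The intervals of 5.30 to 35.4 and 0.669 to 9.66 overlapped.

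Mars, the methionine enzyme, was at 35.4 and 29.7 FPKM in WT, 32.3 and 42.1 in Gcn2-/- and 15.7 and 31.1 in Atf4-/- liver. Its log2 difference of -1.17 between Atf4-/- and WT under PBS was within its combined error of 1.22. Mars lies on chromosome 10 (mm10, 127296221 to 127311786, minus strand) and overlaps Ddit3, a gene of the amino acid response on the opposite strand, by 68 bases. The libraries did not keep strand, so reads from that overlap cannot be told apart, and in Atf4-/- liver Ddit3 was at 8.87 FPKM under PBS and 73.1 after ASNase. The next lowest enzymes under PBS were Iars (-0.80), Yars (-0.76), Tars (-0.71) and Nars (-0.68), none of them called. Of 15 eligible mitochondrial enzymes none was called in this comparison, and their median was -0.12. Mars2, the remaining one, was below 1 FPKM in both groups.

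A list of 12 cytosolic enzymes known as ATF4-linked from other work had a median of -0.59 in this comparison. All 12 were below 0, where 47.8% of all eligible genes were, and the other 8 had a median of -0.14. The same 12 had a median ASNase response of 1.14 in Atf4-/- liver, with all 12 above 0 and 7 called higher. The other 8 had 0.63, with 2 called higher. Among all eligible genes 53.1% lay above 0 and 10.9% were called higher in that response. Both comparisons use the Atf4-/- PBS group, so a low PBS value would enter each with opposite sign. Under ASNase, where that group is not used, the 12 were at a median of 0.52 in Atf4-/- against WT liver and the other 8 at 0.59, so the lists did not separate there.

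Gcn2-/- and WT liver were close to each other without ASNase. In Gcn2-/- against WT under PBS no cytosolic enzyme was called, and Lars2 was the only member called, higher, beside 1.84% of all eligible genes called higher and 3.13% lower. The cytosolic median was -0.06 and the mitochondrial one 0.09, against 0.04 for all eligible genes.

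The ASNase-treated groups were also compared between strains. Atf4-/- against WT gave a cytosolic median of 0.52, with 17 of 20 above 0, against 0.05 for all eligible genes. Wars (2.45-fold), Vars (2.27-fold) and Eprs (2.02-fold) were called higher, 3 of 20, beside 10.5% of all eligible genes, which is a share near the background. No member was called lower, where 15.1% of all eligible genes were. Cars was the lowest at -0.68. Gcn2-/- against WT gave a cytosolic median of 0.33, with 16 of 20 above 0, and no cytosolic enzyme was called, where 7.17% of all eligible genes were called higher and 8.97% lower.

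Pars2, the mitochondrial proline enzyme, was called higher in both of these comparisons. It was at 1.62 and 1.32 FPKM in WT, 2.15 and 3.43 in Gcn2-/- and 1.71 and 3.17 in Atf4-/- liver, PBS first. Its 2 highest values were thus in the ASNase-treated knockout groups, and it was 2.48-fold and 2.30-fold higher there than in WT ASNase, with overlapping intervals. Both comparisons share the WT ASNase value. Atf4-/- against Gcn2-/- under ASNase gave a cytosolic median of 0.25 and a mitochondrial one of -0.10, and Sars (2.08-fold) and Lars2 (2.78-fold) were called higher, beside 6.06% of all eligible genes, with none lower, beside 8.74%. Muscle markers were higher in the WT groups, as given above, and their part in the comparisons between strains was not tested.

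For 16 amino acids both a cytosolic and a mitochondrial enzyme were among the members, and these were compared directly. Eprs served for both glutamate and proline, and the mean of Farsa and Farsb for phenylalanine. The cytosolic enzyme had the larger ASNase response for 6 of 16 amino acids in WT, 11 of 16 in Gcn2-/- and 14 of 16 in Atf4-/- liver. The median difference was -0.05, 0.40 and 0.92 on the log2 scale. In Atf4-/- liver the widest separations were those of asparagine (2.23), valine (2.19) and alanine (1.59), and the exceptions were methionine (-0.13) and leucine (-0.65). Under PBS, by contrast, the cytosolic enzyme had the larger Atf4-/- against WT difference for 3 of 16 amino acids. This comparison and the Atf4-/- response share the Atf4-/- PBS group, so a low PBS value would enter each with opposite sign. Under ASNase, where that group is not used, the cytosolic enzyme had the larger Atf4-/- against WT difference for 10 of 16. The median difference there was 0.45. Gcn2-/- against WT under ASNase also gave 10 of 16, with a median of 0.28.

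**Figure D3:**
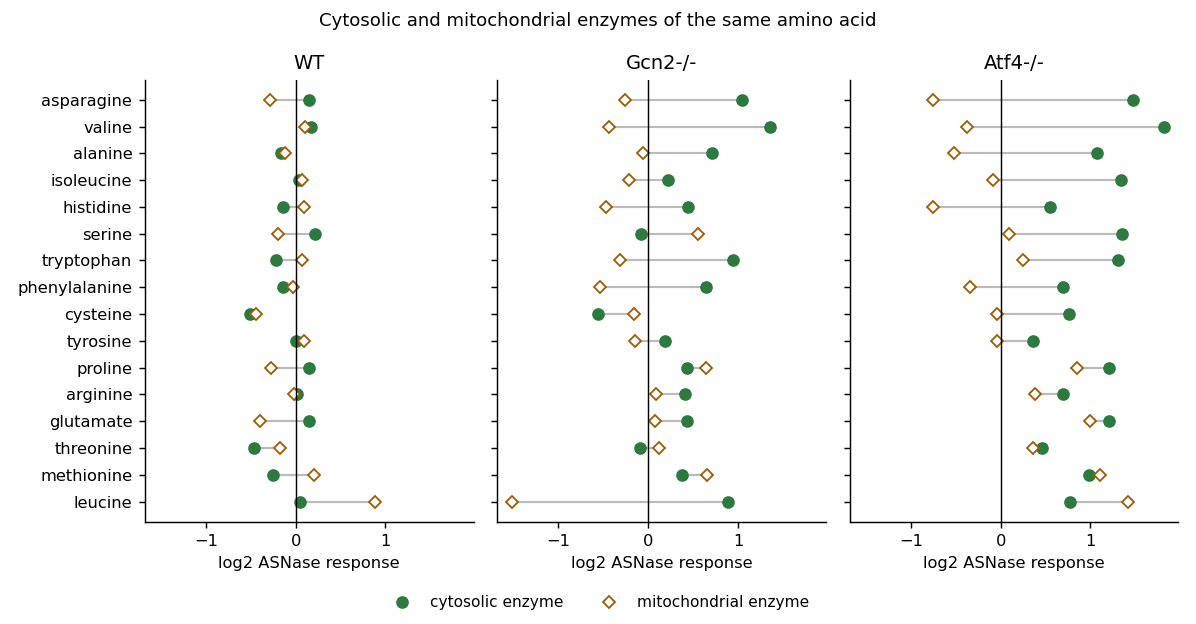
Log2 ASNase response (horizontal axes) of the cytosolic (filled circles) and mitochondrial (open diamonds) enzyme of 16 amino acids (rows) in each strain, each from 1 pooled value per group. In the Atf4-/- panel the circle lies to the right of the diamond for 14 amino acids, whereas in the WT panel most pairs lie close together around 0.

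Apart from Lars2, the mitochondrial enzymes gave few large differences. Mars2, the methionine enzyme of mitochondria, was the one other member called in an ASNase response, at 0.936, 1.09, 0.818, 1.34, 0.798 and 1.84 FPKM in the 6 groups. Its level was near the limit of eligibility, and it was 2.16-fold higher after ASNase in Atf4-/- liver. In that strain Hars2 (-0.75), Aars2 (-0.52), Vars2 (-0.37) and Fars2 (-0.34) were among the lowest responses of the family, with their cytosolic partners above 0. The first of these shares 198 bases with Hars on the opposite strand. Fars2 shares 920 bases with Nrn1 on the opposite strand, which was at 246 FPKM under PBS and 65.4 after ASNase in Atf4-/- liver. Reads from either stretch cannot be told apart, and their part in these responses was not tested. The remaining mitochondrial enzymes, Cars2, Iars2, Rars2, Sars2, Tars2, Wars2 and Yars2, had responses between -0.45 and 0.55 in all strains.

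Lars2, the mitochondrial leucine enzyme on chromosome 9 (mm10, 123366927 to 123462666, plus strand), differed from the other members in level and pattern. It was at 697 and 1285 FPKM in WT, 1932 and 677 in Gcn2-/- and 704 and 1878 in Atf4-/- liver, PBS first. It was 2.67-fold higher after ASNase in Atf4-/- liver and at 0.35 of its PBS value in Gcn2-/- liver, and it was 2.77-fold higher in Gcn2-/- than in WT liver under PBS. The lower bounds reached 0 in WT ASNase, Gcn2-/- PBS and Atf4-/- ASNase, the groups with its 3 highest values. The mitochondrial ribosomal RNA genes moved with it. Mt-Rnr1 was at 1093, 1836, 2126, 548, 851 and 1645 FPKM and mt-Rnr2 at 776, 1662, 1795, 357, 641 and 1151, so that the same 3 groups were the highest for all 3 genes. The transcript AY036118, listed on chromosome 17, was at 31.3, 63.4, 85.2, 28.6, 37.1 and 577. The libraries were made from poly-A RNA, and the part of ribosomal RNA in the Lars2 value was not tested.

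**Figure D4:**
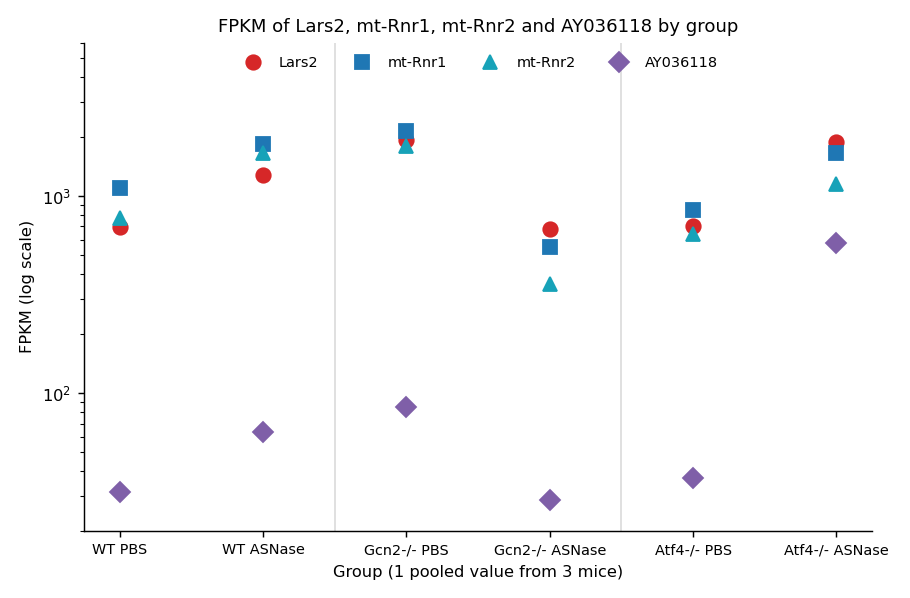
FPKM on a log scale (vertical axis) of Lars2, mt-Rnr1, mt-Rnr2 and AY036118 in the 6 groups (horizontal axis), 1 pooled value from 3 mice each. WT ASNase, Gcn2-/- PBS and Atf4-/- ASNase hold the 3 highest values of Lars2, mt-Rnr1, mt-Rnr2 and also of AY036118, which was highest in Atf4-/- ASNase.

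In the cytosol, 8 of the enzymes are held with the 3 scaffold proteins in the multi-synthetase complex. Aimp2 was at 10.9 and 10.5 FPKM in WT, 10.4 and 20.4 in Gcn2-/- and 9.0 and 18.2 in Atf4-/- liver, PBS first, and was called higher in the last strain (2.02-fold, overlapping intervals). It also overlaps Eif2ak1 on the opposite strand by 1548 bases. Aimp1 was at 27.8, 26.5, 34.7, 34.4, 25.3 and 34.3 FPKM and Eef1e1 at 9.49, 10.8, 11.5, 14.1, 9.14 and 15.1. All 3 lay above 0 in the Atf4-/- response, with a median of 0.71. The 11 genes of the complex had a median response of 0.01 in WT, 0.30 in Gcn2-/- and 0.73 in Atf4-/- liver, with 3 called higher in the last, beside 10.9% of all eligible genes. The cytosolic enzymes of the 2 structural classes were close to each other in Atf4-/- liver, at a median of 0.77 for 9 class I enzymes and 0.78 for 10 class II enzymes, leaving out Eprs, which joins an enzyme of each class.

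Other genes that act beside the synthetases were counted by compartment. Of 12 genes for cytosolic tRNA charging and delivery, 4 were called higher in Atf4-/- liver after ASNase and none lower, beside 10.9% and 13.1% of all eligible genes, with a median of 0.74 and 3 of 12 below 0. They were the elongation factor genes Eef1a1, Eef1b2 and Eef1g and the tRNA export factor Xpot, which was at 12.8 FPKM under PBS and 26.4 after ASNase. Eef1b2 was the highest, at 364 and 1456 FPKM. Of 12 mitochondrial counterparts, Trmu, a tRNA thiolation enzyme, was called higher, 1 of 12 and a share near the background, and none lower, with a median of -0.08. The difference between the compartments was not tested. The mitochondrial elongation factor Gfm1 was at 48.6 and 28.2 FPKM. In WT liver none of these 24 genes was called after ASNase, nor in Gcn2-/- liver. The 9 eligible reference genes of the amino acid response were all called higher in Atf4-/- liver, with a median of 2.91, and Asns was at 0.589 and 20.1 FPKM there. In Gcn2-/- liver the 9 had a median of 0.46, with 6 above and 3 below 0. Of these, 2 were called higher and 2 lower, beside 7.19% and 7.62% of all eligible genes.

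ATF4 binds, with C/EBP proteins, to a composite element that contains the letters TGATGNAA. RefSeq promoter windows of 300 bases (GRCm38.p6, from 250 bases before the start to 50 after it) were given for 30 of the 39 members and searched for these letters on both strands. They were found in 5 of 13 cytosolic enzymes (38.5%), in 0 of 14 mitochondrial enzymes and in 0 of 3 scaffold proteins, and in 4.51% of 27025 genes with a window. No other motif was searched. Cars, Hars, Lars, Nars, Rars, Vars, Wars, Hars2 and Pars2 had no window. A match of each of these 5 enzymes is shown because it marks which of them hold the letters near the start. Each line gives 30 bases, 5′ to 3′ on the strand of the gene, with the match in capitals.
Aars (chr8:111033840-111033869, plus strand): agcgggtcactTTTCATCAgagcgctctga
Gars (chr6:55037960-55037989, plus strand): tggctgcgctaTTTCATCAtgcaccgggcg
Iars (chr13:49682126-49682155, plus strand): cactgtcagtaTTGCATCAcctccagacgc
Tars (chr15:11399655-11399684, minus strand): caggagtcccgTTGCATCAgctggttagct
Yars (chr4:129189895-129189924, plus strand): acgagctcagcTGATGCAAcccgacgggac

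The first base of the match shown lay at 10 relative to the RefSeq start in Aars, at -30 in Gars, at 8 in Iars, at -15 in Tars and at 4 in Yars. Aars held 2 matches, and the one not shown began at -112. In Yars the letters read along the gene, and in the others on the opposite strand. The enzymes with a match were found on both sides of the limit: Aars, Gars and Iars were called higher after ASNase in Atf4-/- liver, at log2 responses of 1.07, 1.22 and 1.34, and Tars and Yars were not, at 0.46 and 0.36. Under PBS the differences between Atf4-/- and WT liver were -0.34, -0.49, -0.80, -0.71 and -0.76 in the same order. Eprs, Farsa and Sars, which were also called in the Atf4-/- response, had a window without these letters. A match is a description of the sequence and was not tested for binding.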

How the data were processed

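Liver poly-A RNA of 18 mice was sequenced from libraries that did not keep strand. The authors used TopHat with Bowtie for alignment to mm10, Cufflinks and Cuffmerge for assembly, and Cuffdiff for the estimates. The deposited table holds FPKM values, 1 per group from 3 libraries, with interval bounds in FPKM and a status. All value columns were mapped to groups, and 0 lay outside the map. The authors' fold changes and tests were not used.

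Groups were taken from the sample labels. Differences of log2(FPKM + 0.1) were computed for genes with status OK, FPKM above 0 in both groups and above 1 in either, and called over 2-fold. No p-value was computed, because the table holds no library values, and depth could not be weighed. Values were given for every member called in any of 8 comparisons and for Nars, Nars2, Qars, Dars, Eprs and Ears2. Members and lists were chosen with earlier results of these data known. Gene positions came from GENCODE (GRCm38) and promoters from RefSeq. Some items are not reported here. The calling script was tested on simulated data with known changes. Alternatives were other pseudocounts, FPKM and fold limits, separate intervals, median-ratio scaling, list means and lists without Gars and Kars. Python 3.11.15, pandas 2.3.3, numpy 2.4.6 and matplotlib 3.10.9 were used.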

Additional observations from a re-analysis of the deposited data

Results flagged for a closer look

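Lars2 was the only member with opposite called responses to ASNase in 2 strains. Its log2 response was -1.51 in Gcn2-/- and 1.42 in Atf4-/- liver, a difference of 2.93, which exceeded the combined error of the 4 values, 2.45. That error counts upper bounds only. The lower bounds were 0 in Gcn2-/- PBS and Atf4-/- ASNase, the groups with the higher value in each strain. With 1 pooled value per group the difference was not tested. Mt-Rnr1 and mt-Rnr2 showed the same directions, at -1.96 and -2.33 in Gcn2-/- and 0.95 and 0.85 in Atf4-/- liver.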

How the results depend on the processing

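The list medians changed by less than 0.2 on the log2 scale in each of 112 comparisons of a median with an alternative (other pseudocounts, FPKM limits, median-ratio scaling, list means, lists without Gars and Kars, and no Lars2), and the cytosolic median in Atf4-/- liver after ASNase stayed between 0.81 and 0.89. Of 144 counts, 109 stayed within 1.5 times the reported count and 35 did not. With a limit of 1.5 on the log2 scale, the cytosolic count was 1 (Vars) in the Atf4-/- response, 1 (Cars) in Atf4-/- against WT under PBS and 0 in the Gcn2-/- response and in the comparisons under ASNase. The mitochondrial counts were then 0 in the Atf4-/- response, in Gcn2-/- against WT under PBS and under ASNase. With separate intervals every count was 0 except 1 (Nars) in the Atf4-/- response. With differences required to exceed the combined error, an alternative chosen after seeing the data, the cytosolic count was 7 in the Atf4-/- response, 1 (Nars) in the Gcn2-/- response and 1 (Cars) in Atf4-/- against WT under PBS, and the mitochondrial count was 1 (Mars2) in the Atf4-/- response and 0 wherever Lars2 had been the called member. The combined error counts upper bounds only, so this limit is lenient. Leaving out Lars2, also chosen after seeing the data, gave the same mitochondrial counts of 1 and 0. A pseudocount of 1 gave a mitochondrial count of 1 in the Atf4-/- response and 0 for Pars2 in both comparisons under ASNase, and an FPKM limit of 3 gave 1 in the Atf4-/- response. Of the medians, 10 near 0 changed sign. The mitochondrial median became -0.04 in the Atf4-/- response with an FPKM limit of 3, with median-ratio scaling and without Lars2, -0.05 in Gcn2-/- against WT under PBS with an FPKM limit of 3, and -0.01, -0.04 and -0.04 in Atf4-/- against WT under ASNase with an FPKM limit of 3, with median-ratio scaling and without Lars2. As a mean it was 0.10 in Atf4-/- against Gcn2-/- under ASNase. The cytosolic median in WT became 0.00 with median-ratio scaling and -0.05 as a mean. In Atf4-/- against Gcn2-/- under ASNase the cytosolic median kept its sign but went from 0.25 to 0.06 without Gars and Kars.

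No paired analysis was possible because the table holds 1 pooled value per group, and no replicate was left out in turn for the same reason. Interval width and the lack of library values limit every statement on a single gene.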
